A study of Mus musculus with 20 samples.

Results

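Dp3Tyb hearts were compared with the hearts of their own wild-type (WT) littermates for every gene outside the duplicated stretch of chromosome 16. Dp3Tyb is a mouse model of Down syndrome on the C57BL/6J background. It carries a tandem duplication from Mir802 to Zbtb21, so that the genes between these ends are in an extra copy, while the WT littermates carry the normal number. The duplication was made in the germline and is present in all cells of the embryo. Both groups held 5 whole hearts taken in mid-gestation at the embryonic stage E13.5, out of 20 hearts in the series, and the other hearts came from the Ts1Rhr strain and its own WT littermates. Ts1Rhr carries a shorter duplication that lies within that of Dp3Tyb. The study describes congenital heart defects in Dp3Tyb embryos and none in Ts1Rhr embryos.

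A gene was described when 5 or more of the 10 hearts had a deposited value of 10 or higher. There were 14763 of them among 48795 genes in the table. Of these, 28 lay inside the segment from 93.38 to 97.77 Mb of chromosome 16 (GRCm39) and 14735 lay outside it, including 109 whose identifiers had no position in the annotation used. A value is the number of reads of a gene in a heart divided by a factor for that library, so a difference between hearts in a value is a difference relative to the other genes of that heart. Hearts are numbered in the order in which they were listed. The labels do not say which embryos shared a litter.

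At E13.5 the mouse heart is a beating organ whose cardiomyocytes still divide, and its chambers are being separated by muscle and by mesenchyme that forms in the endocardial cushions. Entry into the cell cycle is controlled by the retinoblastoma protein and its relatives. They hold back the E2F transcription factors until cyclin-dependent kinases release them, and E2F then raises the genes of DNA replication, while a later complex with B-Myb and FoxM1 raises those of mitosis. Dyrk1a, which lies in the duplication, encodes a kinase known to restrain cyclin D and the entry into the cell cycle.

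The 10 libraries held 6.60 to 19.3 M recovered reads. WT heart 5, the shallowest at 6.60 M, and Dp3Tyb heart 5, at 12.5 M, stood apart, since mitochondrially encoded transcripts took 19.5% and 15.5% of their reads, against 4.85% to 6.15% in the other 8 hearts. That share averaged 7.71% ± 4.34 in Dp3Tyb and 8.10% ± 6.38 in WT hearts (SD, n = 5 each), a difference of -0.382 percentage points (exact permutation test over all splits of the hearts, 2-sided, p = 0.976). By Xist and Y-linked transcripts each group had 2 males and 3 females. The cardiomyocyte markers Myh6 and Tnnt2 were at 29840 or more in every heart. Inside the segment the labels held: Dyrk1a was at 1820, 1866, 1693, 1884 and 2287 in the WT hearts and at 2529, 2492, 2499, 2403 and 3196 in the Dp3Tyb hearts. All 28 genes of the segment had a higher mean in Dp3Tyb, with log2 fold changes from 0.36 to 2.42 and a median of 0.52, and these genes are not described further.

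Outside the segment the hearts of both groups were close to each other. The log2 fold change of Dp3Tyb against WT, fitted by limma to log2(value + 1), had a median of -0.00, with quartiles at -0.07 and 0.08, and the middle 90% of genes ran from -0.20 to 0.37. With limma and Benjamini-Hochberg adjustment over the 14763 genes, 1 gene passed a threshold of 0.05, Ky, which is 0.00679% of the genes outside the segment. DESeq2 on the recovered reads called 10 genes higher (0.0737% of 13563 genes with an adjusted p) and 8 lower (0.059%), and edgeR called 2 (0.0136%), Mal and Ky. At an unadjusted limma p under 0.05 there were 210 higher genes (1.43%) and 179 lower genes (1.21%). In either direction this was 2.64%, below the share of 0.05 that such a threshold passes when no gene changes.

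The groups did not overlap for 58 genes that were higher in Dp3Tyb (0.394% of the genes outside the segment) and 70 that were lower (0.475%). Changes beyond 2-fold, a log2 fold change over 1 in either direction, were seen for 102 genes. Of these 91 were higher and 11 lower, 95 had a mean below 100 in the WT hearts, and 14 had an unadjusted limma p under 0.05. The spread between hearts was wider for low genes: the median SE of a log2 fold change was 0.31 for the 1815 genes with a mean value under 30, and 0.10 for the 819 genes with a mean of 3000 or more.

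**Figure D1:**
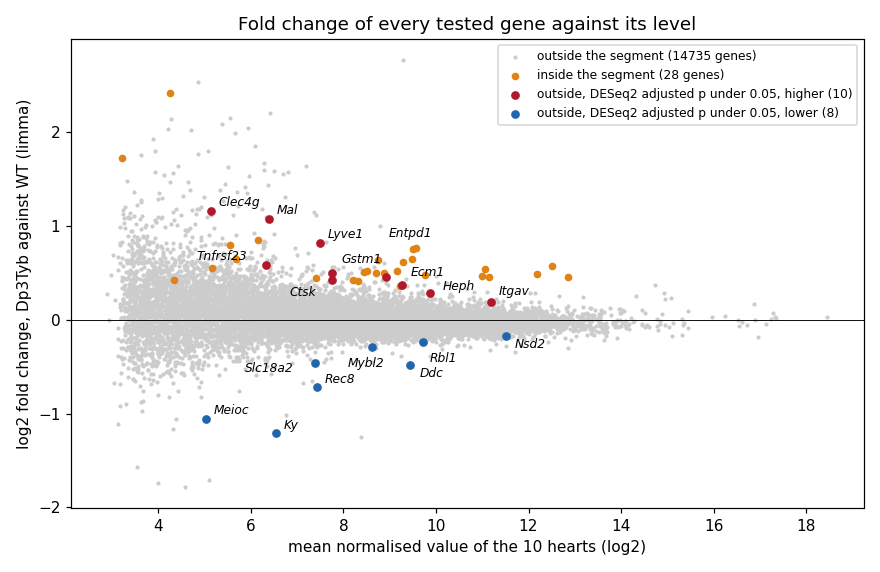
Log2 fold change of Dp3Tyb against WT hearts (y axis, limma) against the log2 of the mean normalised value of the 10 hearts (x axis); each point is a gene. The 28 genes inside the segment (orange) lie between 0.36 and 2.42, and the 10 genes called higher (red) and 8 called lower (blue) by DESeq2 outside the segment are named.

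The only gene outside the segment that passed in limma was Ky, which encodes kyphoscoliosis peptidase, a protein of the muscle Z-disc that maintains muscle. Ky lies on chromosome 9 (GRCm39, 102382949 to 102423441, plus strand). It was at 112, 156, 105, 132 and 141 in the WT hearts and at 44.3, 78.2, 56.8, 49.9 and 50.4 in the Dp3Tyb hearts. Every Dp3Tyb heart was below every WT heart. The means were 129 ± 20.8 and 55.9 ± 13.2 (SD, n = 5 each), a fold of 0.433, and the log2 fold change was -1.21 ± 0.17 (SE, limma adjusted p = 0.0415). The adjusted p was 5.2e-07 in DESeq2 and 0.0435 in edgeR. Over 23 alternative settings the log2 fold change stayed between -1.34 and -1.09, and the adjusted p passed in 13 of them. It missed the threshold in limma when any 1 of the 8 hearts other than WT heart 5 and Dp3Tyb heart 2 was left out, with sex as a covariate and with no filter on low genes, where the largest value was 0.173.

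The promoter of Ky is shown because it belongs to the gene with the smallest p-value outside the segment. The 150 bases before its start site, from the RefSeq table for GRCm38.p6 (chr9:102505988-102506137, plus strand), hold none of the E2F words described further on, and no letters are in capitals.

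Ky: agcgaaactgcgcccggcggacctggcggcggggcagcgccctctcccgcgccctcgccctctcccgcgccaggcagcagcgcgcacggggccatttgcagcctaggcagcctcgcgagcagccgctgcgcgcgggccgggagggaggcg

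Mal, a small membrane protein of lipid rafts that is best known from myelin and epithelia, was the gene raised with the smallest p. It lies on chromosome 2 (GRCm39, 127475142 to 127498615, minus strand). Its values were 49.8, 47.2, 43.3, 53.8 and 73.4 in the WT hearts and 87.7, 109, 128, 108 and 134 in the Dp3Tyb hearts, with no overlap. The fold was 2.11 and the log2 fold change 1.08 ± 0.17 (SE). The adjusted p was 0.0718 in limma, 1.64e-07 in DESeq2 and 0.0435 in edgeR.

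Of the 18 genes that DESeq2 called outside the segment, 16 had groups that did not overlap, and the exceptions were Lyve1 and Rec8. In limma, 17 of the 18 missed the threshold, and over the alternative settings the highest adjusted p of these 17 ran from 0.343 for Mal to 1. The calls changed with the pair of libraries rich in mitochondrial transcripts: without WT heart 5 and Dp3Tyb heart 5, DESeq2 called 25 genes higher (0.17% of 14733) and 13 lower (0.0882%), among them 13 of the 18. The 5 lost were Mybl2 (adjusted p = 0.0557), Rbl1 (0.082), Tnfrsf23 (0.111), Slc18a2 (0.122) and Meioc (0.126). Their log2 fold changes in the 8 hearts left, fitted by limma, were -0.27, -0.20, 0.60, -0.39 and -0.86, against -0.29, -0.24, 0.59, -0.46 and -1.05 in all 10.

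**Figure D2:**
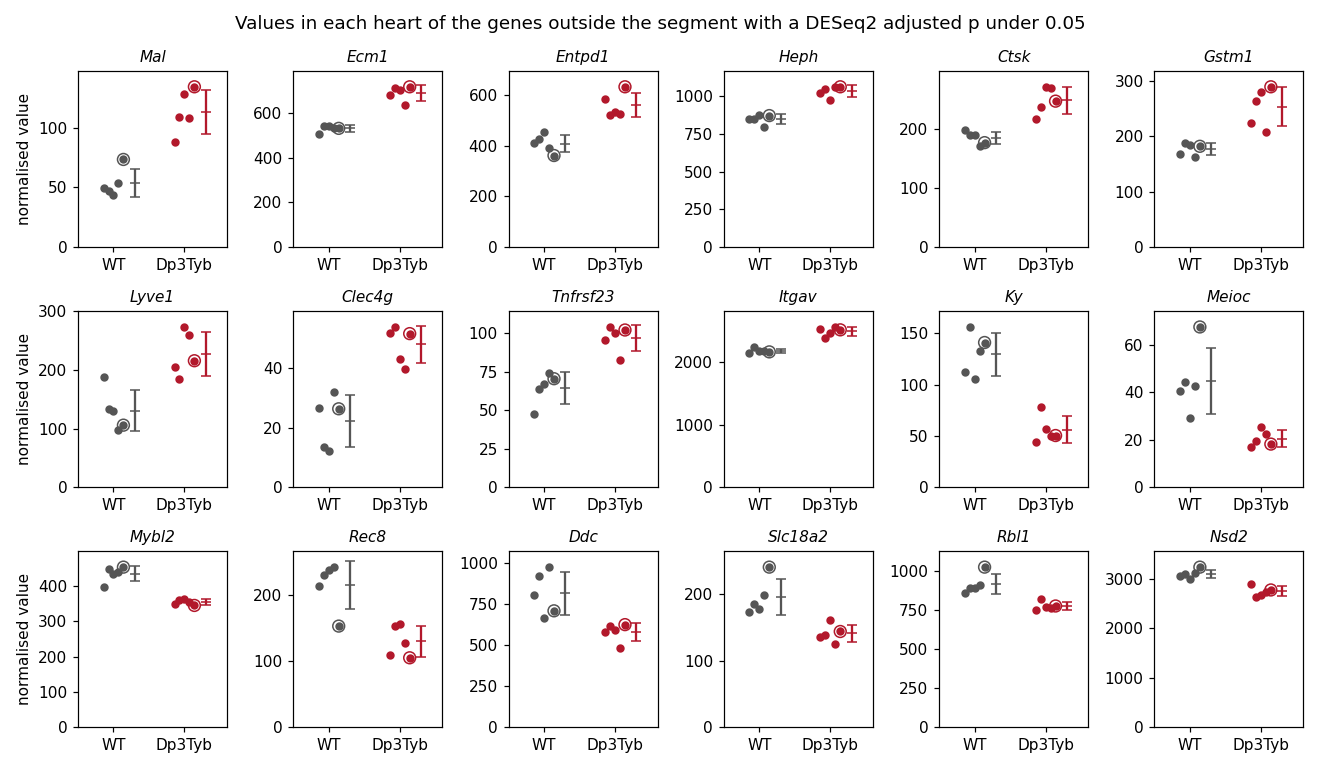
Normalised value (y axis, from 0) of the 18 genes outside the segment with a DESeq2 adjusted p under 0.05, in each of the 5 WT (grey) and 5 Dp3Tyb (red) hearts; bars give the mean and SD, and the circled point is heart 5 of each group, the library rich in mitochondrial transcripts. The first 10 panels are genes higher in Dp3Tyb and the last 8 are genes lower, and the groups overlap for Lyve1 and Rec8.

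Of the genes called lower, Mybl2 and Rbl1 are known from the cell cycle. Mybl2 encodes B-Myb, which drives the genes of G2 and mitosis. It was at 396, 447, 434, 440 and 452 in the WT hearts and at 348, 359, 364, 355 and 344 in the Dp3Tyb hearts. The Dp3Tyb hearts were narrow in their spread and lay below all WT hearts, and the log2 fold change was -0.29 ± 0.06 (SE, DESeq2 adjusted p = 0.00713, limma adjusted p = 0.47). Rbl1 encodes p107, a relative of the retinoblastoma protein and itself an E2F target. Its values were 862, 891, 893, 908 and 1025 in the WT hearts and 751, 819, 767, 764 and 776 in the Dp3Tyb hearts. The groups were apart, by a log2 difference of -0.24 ± 0.06 (SE, DESeq2 adjusted p = 0.0493, limma adjusted p = 0.991), and WT heart 5 was the highest. Nsd2, a histone H3 lysine 36 methyltransferase, was at 3001 to 3232 in the WT hearts and at 2638 to 2895 in the Dp3Tyb hearts, with a log2 fold change of -0.17 ± 0.05 (SE, DESeq2 adjusted p = 0.0193).

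Rec8, the cohesin subunit of meiotic chromosomes, was at 213, 229, 237, 242 and 153 in the WT hearts and at 110, 153, 155, 127 and 105 in the Dp3Tyb hearts. Only WT heart 5 reached down into the Dp3Tyb range. The log2 fold change was -0.72 ± 0.16 (SE, DESeq2 adjusted p = 0.00106), and -0.77 without the pair of libraries rich in mitochondrial transcripts, when limma also called it (adjusted p = 0.00732). Meioc, a factor that keeps germ cells in meiosis, averaged 44.9 ± 13.9 in WT and 20.5 ± 3.4 in Dp3Tyb hearts (SD, n = 5 each), with no overlap (log2 fold change -1.05 ± 0.22 SE, DESeq2 adjusted p = 0.0168).

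The E2F targets were shifted down as a group, by a small amount per gene. Of 194 symbols of the Hallmark list, 187 were tested, and 174 of these had a log2 fold change below 0, a share of 93% against 51.2% of all genes outside the segment. The median was -0.10, a change of -6.44%, against -0.00 over all genes outside the segment. No member passed in limma and 1, Mybl2, passed in DESeq2, which called 0.059% of all genes lower. At an unadjusted p under 0.05, 24 members were lower (12.8% of those tested, against 1.21% of all genes outside the segment) and 0 higher, and 8 did not overlap, all lower (4.28%, against 0.475%). The list is a published set that was picked with its direction in these hearts already known, so that direction is not independent evidence.

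Among its members, Cdkn2c, an inhibitor of the cyclin D kinases, was at 221, 264, 213, 224 and 211 in the WT hearts and at 163, 189, 187, 165 and 183 in the Dp3Tyb hearts. The groups did not overlap, and the log2 fold change of -0.35 ± 0.09 (SE) did not pass (adjusted p = 0.991 in limma and 0.108 in DESeq2). Brca1, which acts in the repair of broken replication forks, was at 601 to 708 in the WT hearts and at 505 to 582 in the Dp3Tyb hearts, again without overlap. Plk4, the kinase that starts centriole duplication, was at 945 to 984 in the WT hearts and at 757 to 949 in the Dp3Tyb hearts. Only Dp3Tyb heart 1 reached the WT range. The log2 fold changes of Brca1 and Plk4 were -0.20 ± 0.07 each (SE, both with a limma adjusted p of 1).

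Averaged over the 187 targets, the log2 deviation from the WT mean was -0.03, -0.02, -0.05, 0.00 and 0.11 in the WT hearts and -0.05, -0.13, -0.10, -0.12 and -0.10 in the Dp3Tyb hearts. The groups met at -0.0515 for the lowest WT heart and -0.0531 for the highest Dp3Tyb heart, so they were apart by less than the spread within either. WT heart 5 stood above the other WT hearts. Without it and Dp3Tyb heart 5 the median log2 fold change was -0.07, with 157 of 187 members below 0.

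The other lists of the cell cycle showed the same direction. They share members with the E2F targets, among them Mybl2, Brca1 and Cdkn2c, and were also picked with earlier results known. Their direction is therefore not independent evidence either. All 55 genes of G2 and mitosis that were tested had a log2 fold change below 0, with a median of -0.15 and a range from -0.29 to -0.03. Of these, 10 had an unadjusted p under 0.05 (18.2%, against 1.21% of all genes) and 2 did not overlap, Mybl2 and Foxm1 (3.64%, against 0.475%). Foxm1, the transcription factor of mitotic genes, was at 1290 to 1380 in the WT hearts and at 1177 to 1247 in the Dp3Tyb hearts. Ube2c, which marks mitotic proteins for destruction, averaged 1771 ± 115 in WT and 1542 ± 128 in Dp3Tyb hearts (SD, n = 5 each), and its groups overlapped. Spc24, a kinetochore subunit, had a log2 fold change of -0.23 ± 0.09 (SE). The list mean was 0.28 above the WT average in WT heart 5. It overlapped between groups, at -0.10 to 0.28 in the WT and -0.22 to -0.05 in the Dp3Tyb hearts. Without the pair of libraries the list median was -0.11, with 53 of 55 members below 0.

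Of 50 genes of DNA replication, 49 had a log2 fold change below 0, with a median of -0.14. At an unadjusted p under 0.05 there were 9, all lower (18%, against 1.21% of all genes), and 3 did not overlap (6%, against 0.475%), among them Brca1 and Uhrf1, which carries DNA methylation across replication. Uhrf1 was at 1783 to 1951 in the WT hearts and at 1569 to 1767 in the Dp3Tyb hearts. Pole, the leading strand polymerase, averaged 912 ± 55.8 in WT and 803 ± 50.7 in Dp3Tyb hearts (SD, n = 5 each). The list mean was -0.03 to 0.04 in the WT hearts, WT heart 5 included, and -0.12 to -0.23 in 4 Dp3Tyb hearts, while Dp3Tyb heart 1 was within the WT range at -0.01. Without the pair of libraries the median was -0.12.

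Of 30 cyclins, kinases and inhibitors of G1, 23 were below 0 with a median of -0.06. Cdkn2c and Rbl1 were its non-overlapping members (6.67%, against 0.475% of all genes lower and apart). Cyclin D1 (Ccnd1), which activates the kinases of G1, was at 1985 to 2293 in the WT hearts and at 1898 to 2052 in the Dp3Tyb hearts (log2 fold change -0.12 ± 0.06, SE, not called), and E2f7, a repressor among the E2F factors, had a log2 fold change of -0.19 ± 0.10 (SE).

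**Figure D3:**
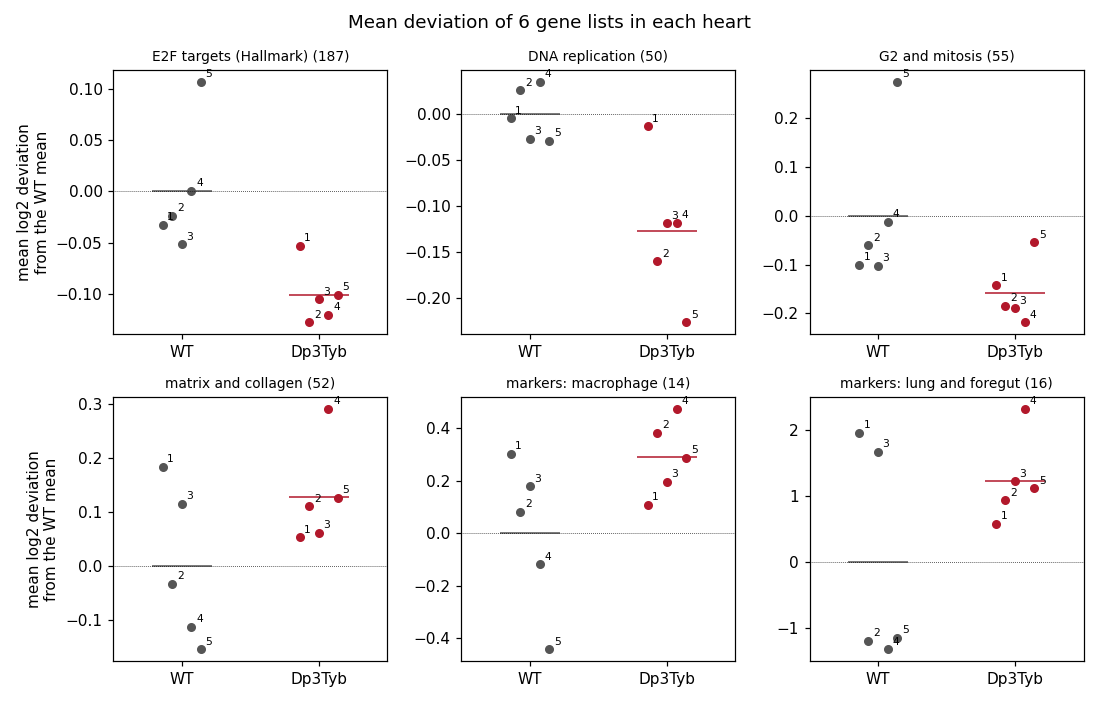
Mean log2 deviation from the WT average (y axis) over the tested genes of 6 lists, in each WT (grey) and Dp3Tyb (red) heart; numbers are the hearts, lines the group means, and the number of genes is in brackets. The E2F target means lie at -0.05 or above in the WT hearts and at -0.05 or below in the Dp3Tyb hearts, and those of lung and foregut markers split the WT hearts.

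The promoters of the 3 E2F targets with the smallest p-values are shown because these genes shared a direction. The 150 bases before the start site were searched for the E2F word TTCCCGC, its variant TTGGCGC, its variant TTCGCGC and its variant TTGCCGC, and for the mitotic CHR word TTTGAA, on both strands. Sequences are from RefSeq on GRCm38.p6 and matches are in capitals. They lie at chr2:163054485-163054634 (plus strand, Mybl2), chr4:109666757-109666906 (minus strand, Cdkn2c, the first of its 2 starts) and chr3:40799801-40799950 (plus strand, Plk4).

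Mybl2: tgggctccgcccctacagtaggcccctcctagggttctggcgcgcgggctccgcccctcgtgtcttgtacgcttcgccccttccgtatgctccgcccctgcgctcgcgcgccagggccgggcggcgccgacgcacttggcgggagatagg

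Cdkn2c: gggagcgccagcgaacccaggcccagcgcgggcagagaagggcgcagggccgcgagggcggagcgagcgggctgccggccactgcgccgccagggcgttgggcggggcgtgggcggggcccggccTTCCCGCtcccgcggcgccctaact

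Plk4: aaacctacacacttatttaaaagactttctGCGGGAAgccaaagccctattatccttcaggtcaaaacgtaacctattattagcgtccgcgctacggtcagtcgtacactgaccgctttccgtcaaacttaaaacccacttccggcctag

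Cdkn2c held 1 E2F word and Plk4 held 1 on the opposite strand, while the window of Mybl2 held no exact match to these words. Only exact matches were counted, so an E2F site spelled otherwise, in Mybl2 or elsewhere, would be missed. The second start of Cdkn2c held none either, nor did the windows of Brca1 and Bard1, the next E2F targets by p. Of the 187 E2F targets tested, 153 had a promoter in the table and 38 of these (24.8%) held an E2F word, against 1220 of 10827 genes tested outside the segment (11.3%). Among the 24 targets lower at an unadjusted p under 0.05, 7 of the 20 with a promoter held one. The CHR word was found for 16 of 46 genes of G2 and mitosis (34.8%), against 6.57% of all. Over the genes chosen by non-overlap alone, 15 of 60 lower ones (25%) and 3 of 46 higher ones (6.52%) held an E2F word. For the CHR word the same groups gave 1 of 60 (1.67%) and 2 of 46 (4.35%), and among genes with an unadjusted p under 0.05 it was found for 6.99% of the lower and 10% of the higher ones. These are descriptions of letters, and binding was not measured.

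The genes called higher held several proteins of the extracellular matrix and of its turnover. Ecm1, a secreted matrix glycoprotein, was at 507, 543, 544, 535 and 531 in the WT hearts and at 679, 713, 705, 635 and 717 in the Dp3Tyb hearts. The gap between the groups was wider than the spread within either, and the log2 fold change was 0.37 ± 0.06 (SE, adjusted p = 0.075 in limma and 1.2e-06 in DESeq2). Ctsk encodes cathepsin K, a protease that degrades collagen. It was at 197, 189, 189, 170 and 176 in the WT hearts and at 216, 236, 270, 269 and 246 in the Dp3Tyb hearts, with no overlap (log2 fold change 0.42 ± 0.09 SE, DESeq2 adjusted p = 0.0132). Itgav, the integrin alpha V subunit that binds vitronectin and latent TGF-beta, was at 2147 to 2235 in the WT hearts and at 2387 to 2562 in the Dp3Tyb hearts. Its log2 fold change was the smallest of the called genes that were higher, 0.19 ± 0.05 (SE, DESeq2 adjusted p = 0.000234).

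Of 52 genes of matrix and collagen tested, 43 had a log2 fold change above 0, with a median of 0.13 against -0.00 over all genes outside the segment. DESeq2 called 3, Ecm1, Ctsk and Itgav (against 0.0737% of all genes), and 5 had an unadjusted p under 0.05, all higher (9.62%, against 1.43%). Tenascin C (Tnc), an adhesion-modulating glycoprotein of remodelling tissue, was at 1820 to 2201 in the WT hearts and at 2133 to 2498 in the Dp3Tyb hearts, with overlap. The mean over the list overlapped between groups, since WT hearts 1 and 3 stood at 0.18 and 0.12 and the Dp3Tyb hearts between 0.05 and 0.29. The same WT hearts and Dp3Tyb heart 4 were highest for 10 smooth muscle and pericyte markers (0.45, 0.28 and 0.52, list median 0.03) and for lung and foregut markers (1.97, 1.68 and 2.32), whose part in the matrix result was not tested. The matrix median was 0.09 without the pair of libraries. Of 30 genes of endocardial cushion and valve mesenchyme, 24 were above 0 with a median of 0.11. Snai1, a factor of the change from endothelium to mesenchyme, had a log2 fold change of 0.35 ± 0.16 and Scx, a tendon and valve factor, -0.44 ± 0.16 (SE, both with a limma adjusted p of 1).

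The other genes called higher had mixed roles. Of 15 markers of endothelium and endocardium, 9 had a log2 fold change above 0 with a median of 0.05, 0 had an unadjusted p under 0.05 and none was called by limma or DESeq2. Entpd1 encodes CD39, an enzyme on endothelium and leukocytes that breaks down extracellular ATP. It was at 410, 425, 454, 390 and 361 in the WT hearts and at 583, 523, 532, 525 and 632 in the Dp3Tyb hearts, without overlap (log2 fold change 0.45 ± 0.08 SE, DESeq2 adjusted p = 0.000398). Lyve1, a hyaluronan receptor of lymphatic endothelium and of tissue macrophages, was at 188, 132, 129, 98 and 106 in the WT hearts and at 204, 185, 273, 259 and 215 in the Dp3Tyb hearts. WT heart 1 was above Dp3Tyb heart 2 and the other hearts were apart, by a log2 difference of 0.82 ± 0.18 (SE, DESeq2 adjusted p = 0.0168). Clec4g, a lectin of sinusoidal and lymphatic endothelium, averaged 22.3 ± 8.74 in WT and 48.1 ± 6.23 in Dp3Tyb hearts (SD, n = 5 each), a fold of 2.24 on the fitted scale (DESeq2 adjusted p = 0.0245).

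Heph, a ferroxidase that helps export iron from cells, was at 847, 847, 876, 796 and 872 in the WT hearts and at 1024, 1051, 973, 1061 and 1063 in the Dp3Tyb hearts. The groups were well apart, with a log2 fold change of 0.29 ± 0.05 (SE, DESeq2 adjusted p = 9.28e-05). Gstm1, a glutathione transferase, averaged 177 ± 11.2 and 253 ± 35.4 (DESeq2 adjusted p = 0.0134), and Tnfrsf23, a decoy receptor for TRAIL, 64.6 ± 10.3 and 96.8 ± 8.62 in WT and Dp3Tyb hearts (SD, n = 5 each, DESeq2 adjusted p = 0.0421). Both have close relatives beside them in the genome, between which reads can be divided, so their values are less certain.

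Of 14 macrophage markers tested, all had a log2 fold change above 0, with a median of 0.27. At an unadjusted p under 0.05 there were 3, all higher (21.4%, against 1.43% of all genes). Lyve1 passed in DESeq2 (which called 0.0737% of all genes higher), and Mrc1, the mannose receptor, and Ptprc, the leukocyte tyrosine phosphatase CD45, had log2 fold changes of 0.30 ± 0.10 and 0.42 ± 0.17 (SE, both with a limma adjusted p of 1). The summed value of the list ran from 1483 to 2461 in the WT hearts and from 2165 to 2658 in the Dp3Tyb hearts, and WT heart 5 was the lowest. Csf1r, the receptor that macrophages need to survive, was at 414 to 541 in WT hearts 1 to 4, 285 in WT heart 5 and 428 to 613 in the Dp3Tyb hearts, so the groups overlapped. Without the pair of libraries the list median was 0.17, with 11 of 14 above 0. In whole hearts, more cells of a type and more RNA per cell cannot be told apart. Snx20, a sorting nexin of leukocytes, was at 7.48 to 11.7 in the WT hearts and at 14.5 to 25.2 in the Dp3Tyb hearts, without overlap (limma adjusted p = 0.48). Of 32 interferon response genes, 23 were above 0 with a median of 0.15 and 0 had an unadjusted p under 0.05, so none was called by limma or DESeq2.

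Ddc and Slc18a2 were called lower by DESeq2 in all 10 hearts. Ddc, the decarboxylase that makes dopamine and serotonin, was at 801, 920, 667, 973 and 708 in the WT hearts and at 578, 613, 593, 483 and 624 in the Dp3Tyb hearts. Slc18a2, the transporter that loads monoamines into vesicles, was at 174 to 241 in the WT hearts and at 126 to 162 in the Dp3Tyb hearts. Neither overlapped, and the log2 fold changes were -0.48 ± 0.12 and -0.46 ± 0.11 (SE, DESeq2 adjusted p = 0.0299 and 0.0493).

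Other genes of monoamine synthesis and storage, named after their values were seen, were low: tyrosine hydroxylase (Th) was at 0 to 18.5 in the WT and 8.61 to 19.5 in the Dp3Tyb hearts, Dbh at 2.24 to 24.3 and at 5.11 to 20.3, and Slc18a1 at 0 to 4.64 and at 5.08 to 10.9. Ddc and Slc18a2 went against the list in which they stood. Of 17 tested markers of neural crest, glia and neurons, 14 were above 0 with a median of 0.55, among them the neuronal tubulin Tubb3 (log2 fold change 0.64 ± 0.24) and the granule protein Chgb (1.09 ± 0.42, SE). The list mean of the WT hearts split into 0.83 and 0.58 for hearts 1 and 3 and -0.35 to -0.63 for the others, with the Dp3Tyb hearts at -0.10 to 0.97. Sox10, which defines neural crest and glia, was at 76.5 and 44.1 in WT hearts 1 and 3, at 2.94 to 20.9 in the other WT hearts and at 18.7 to 64.4 in the Dp3Tyb hearts.

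The same WT hearts stood out for markers of lung and foregut. All 16 tested markers were above 0 in the contrast, with a median of 1.45, yet none passed in limma or DESeq2. Nkx2-1, which defines the lung and thyroid epithelium, was at 38.3, 0, 43.3, 0 and 0 in the WT hearts and at 10.2, 16.4, 15.3, 49.9 and 11.2 in the Dp3Tyb hearts. Epcam, a marker of epithelia, was at 133 and 81.9 in WT hearts 1 and 3, at 2.28 to 20.6 in the other WT hearts and at 17 to 139 in the Dp3Tyb hearts. Sftpc, the surfactant gene of later lung, was at or near 0, at most 3.62. Dp3Tyb heart 4 also carried thymus transcripts, with Foxn1 at 11.6 and Pax1 at 79.6, against 0 and at most 2.94 in the other hearts. Foxa2, a factor of the endoderm, and Cldn6, a tight junction protein of embryonic epithelia, averaged 13.8 ± 18.3 and 22.4 ± 30.7 in WT and 24.7 ± 16.1 and 35.6 ± 30.6 in Dp3Tyb hearts (SD, n = 5 each). Their log2 fold changes were 2.14 ± 1.02 and 2.53 ± 1.29 in limma (SE), which averages logs that include hearts at or near 0, but 0.82 and 0.66 in DESeq2, and neither was called. The summed value of the lung and foregut list overlapped between groups (3432 to 4227 in WT and 3847 to 4727 in Dp3Tyb hearts). That sum was carried by Id2, Bex1 and Etv5, which were high in every heart, and does not measure such tissue. In WT heart 2, with Nkx2-1 at 0, they were at 1239, 1113 and 627 in a sum of 3432. The part of such tissue in the other results was not tested.

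Nuclear-encoded genes of mitochondrial respiration lay slightly below 0. Of 36 genes of complex I, 27 had a log2 fold change below 0 with a median of -0.05, and of 46 genes of complexes II to V, 34 did with a median of -0.05. None was called by limma or DESeq2, 0 had an unadjusted p under 0.05, and 0 had groups that did not overlap. The direction did not hold without the pair of libraries rich in mitochondrial transcripts, when 19 of 36 and 22 of 46 were below 0 and the medians were -0.00 and 0.01. Of the 13 mitochondrially encoded protein genes, 9 were above 0 with a median of 0.03 in all 10 hearts, and 13 were above 0 with a median of 0.14 without the pair of libraries. In those 8 hearts DESeq2 called mt-Atp8 and mt-Nd6, subunits of complexes V and I named after their values were seen (adjusted p = 0.00982 and 0.0234, in a fit that called 0.17% of all genes higher), which limma did not (0.219 and 0.258). Cox7a1, the heart form of a complex IV subunit, had the smallest p of the nuclear-encoded genes and was higher, at 180 to 244 in the WT hearts and 221 to 286 in the Dp3Tyb hearts. The citric acid cycle and fatty acid oxidation (median -0.05 over 41 genes) and glycolysis (-0.04 over 25) lay at like values. Ucp2, an inner membrane carrier, was at 1140 to 1359 in the WT hearts and at 857 to 1178 in the Dp3Tyb hearts, and its groups overlapped (log2 fold change -0.32 ± 0.09 SE, limma adjusted p = 1).

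Of 48 genes of the sarcomere and Z-disc, 40 had a log2 fold change below 0 (83.3%, against 51.2% of all genes) with a median of -0.08. Without the pair of libraries 33 were below 0 with a median of -0.06. In Ts1Rhr hearts against their own WT littermates 24 of 48 were below 0. With all 10 hearts Ky was the only one called (2.08%, against 0.00679% of all genes in limma and 0.059% lower in DESeq2). The list mean overlapped between groups (-0.19 to 0.25 in WT and -0.38 to 0.07 in Dp3Tyb hearts). Without the pair of libraries DESeq2 called the actin gene Acta1 higher (adjusted p = 0.0031, in a fit that called 0.17% of all genes higher). Its log2 fold change in those hearts was 0.34 in limma, which did not call it (adjusted p = 0.244). Neb and Myh7b, a giant thin-filament protein and a slow myosin, had log2 fold changes of -0.76 ± 0.39 and -0.26 ± 0.14 (SE). The medians of 10 cardiomyocyte markers, 31 genes of calcium handling, 21 of chamber identity and 25 cardiac transcription factors were -0.08, -0.03, 0.01 and -0.00, and none of their members was called by limma or DESeq2.

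Of 43 genes of Notch, Hedgehog, BMP and Wnt signalling, 33 had a log2 fold change above 0 with a median of 0.06, and none was called by limma or DESeq2 or had an unadjusted p under 0.05. The mean over that list was 0.31 and 0.26 in WT hearts 1 and 3, -0.12 to -0.32 in the other WT hearts and 0.10 to 0.43 in the Dp3Tyb hearts, so the groups overlapped. Of 14 genes of calcineurin and NFAT signalling, which Dyrk1a is known to oppose, Nfatc2 was the one whose groups did not overlap, at 405 to 473 in the WT hearts and 332 to 392 in the Dp3Tyb hearts (-0.23 ± 0.07 on the log2 scale, SE, not called), which makes 7.14% of the list against 0.475% of all genes lower and apart, and the list median was -0.02. Of 14 antigen presentation genes, Rfx5, a factor of MHC class II promoters, was at 412, 403, 419, 440 and 611 in the WT hearts and at 307, 340, 308, 326 and 373 in the Dp3Tyb hearts. It was the only member of that list whose groups did not overlap (7.14%, against 0.475%), although WT heart 5 stood high, and without the pair of libraries its log2 fold change was -0.39 and passed in limma (adjusted p = 0.0115). The hypoxia Hallmark list was centred on 0, with 84 of 165 genes above 0 and a median of 0.00. The unfolded protein, p53 and immediate early lists had medians of -0.00, -0.02 and -0.02. Grik3, a kainate receptor, and Cdkl2, a kinase, completed the lower genes with the smallest p, at log2 fold changes of -0.59 ± 0.16 each (SE), with limma adjusted p-values of 1.

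**Figure D4:**
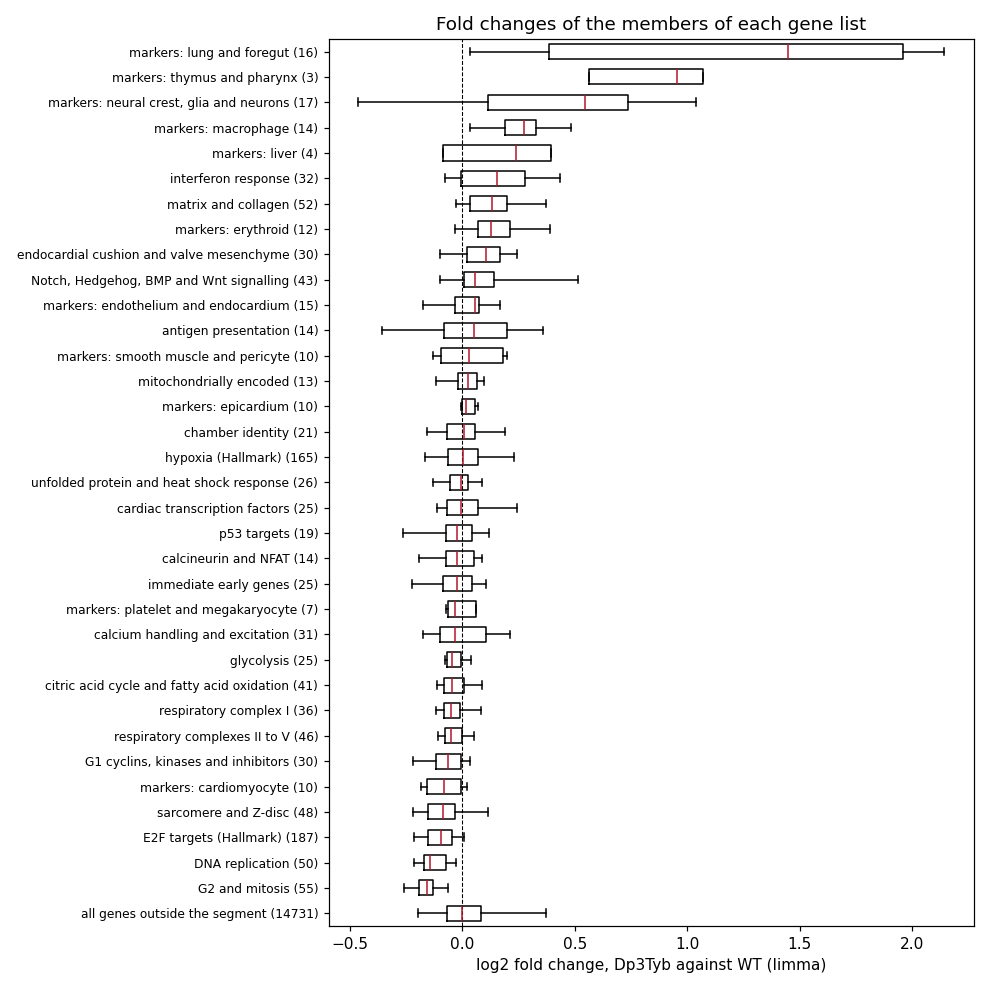
Log2 fold change of Dp3Tyb against WT (x axis, limma) for the tested genes of 34 lists and for all genes outside the segment with a distinct symbol; boxes give the quartiles and median (red), whiskers the 5th and 95th percentiles, and the dashed line the median of all genes. The lists of DNA replication and of G2 and mitosis lie lowest, with medians of -0.14 and -0.15, and lung and foregut markers lie highest, at 1.45.

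The share of genes whose groups did not overlap ran from 0.374% on chromosome 13 to 1.44% on chromosome 3 among the autosomes, and the chromosome medians lay between -0.02 and 0.01. In the 5 Mb of chromosome 16 before the segment, 32 genes were tested, 12 were above 0, the median was -0.02 and 0 had an unadjusted limma p under 0.05. Ecm1, Ctsk and Rfx5 lie together on chromosome 3 (GRCm39, 94861381 to 95646943), within 786 kb that held 30 tested genes. Of those 30, 3 did not overlap (against 0.869% of all genes in either direction) and 4 had an unadjusted p under 0.05 (against 2.64%), the window having been chosen for the first 3. Their median was 0.01, and Rfx5 was lower where Ecm1 and Ctsk were higher.

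The Ts1Rhr hearts, compared with their own WT littermates, share no control with the Dp3Tyb contrast. For 14578 genes outside the segment tested in both, the sign was the same in 63.3%. Of the 18 genes called by DESeq2 in Dp3Tyb, 17 had the same sign in Ts1Rhr, and 15 had an unadjusted limma p under 0.05 there, against 5.45% of all genes. Ky was at -0.90 ± 0.20 in Ts1Rhr, Mal at 0.84 ± 0.14, Entpd1 at 0.45 ± 0.08 and Clec4g at 1.14 ± 0.18 (log2 fold change, SE). Mybl2 and Slc18a2 were at -0.08 ± 0.09 and -0.13 ± 0.09.

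Heph was the exception, at -0.09 ± 0.08 in Ts1Rhr. In the interaction contrast of limma, which tests whether the change differs between strains, no gene outside the segment passed among 15319, Heph included. The interaction of Heph was 0.38 ± 0.09 on the log2 scale (SE, limma unadjusted p = 0.00064, adjusted p = 0.9997). At an unadjusted p under 0.05 there were 228 genes (1.49%), and DESeq2 gave 0 past the threshold and 186 at an unadjusted p under 0.05. The medians in Ts1Rhr were -0.09 for E2F targets, -0.12 for DNA replication, -0.14 for G2 and mitosis and 0.11 for matrix. They were 0.02 for complex I and 0.02 for complexes II to V, beside -0.05 each in Dp3Tyb with all 10 hearts and -0.00 and 0.01 without the pair of libraries, and the difference between strains in these medians was not tested. They were -1.54 for lung and foregut markers against 1.45.

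**Figure D5:**
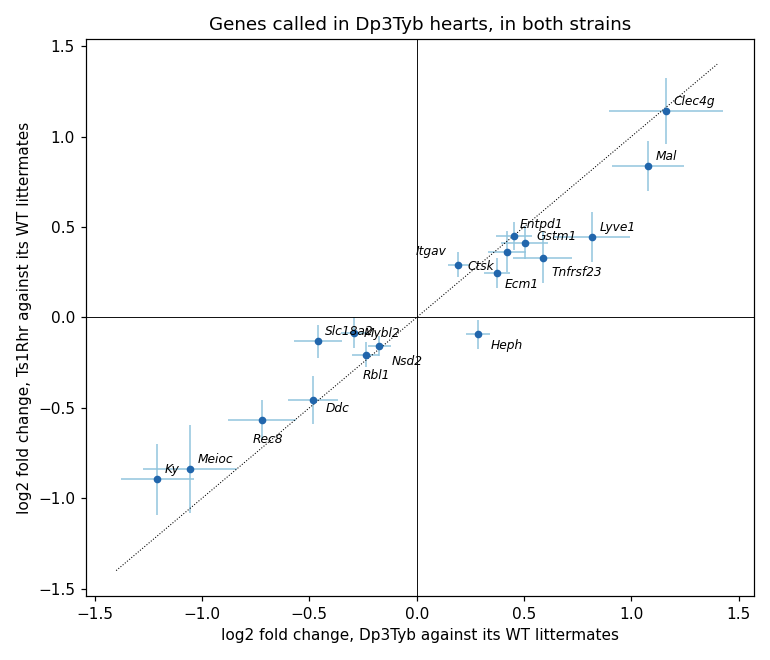
Log2 fold change with its SE in Dp3Tyb (x axis) and in Ts1Rhr hearts (y axis), each against its own WT littermates, for the 18 genes called by DESeq2 in Dp3Tyb outside the segment; the dotted line marks equal values. Heph is the only 1 of the 18 with opposite signs, 0.29 in Dp3Tyb and -0.09 in Ts1Rhr.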

How the data were processed

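Hearts were dissected at E13.5, total RNA was extracted, and mRNA libraries (KAPA mRNA HyperPrep) were sequenced. Per the submitters' processing notes, reads were trimmed with Trimmomatic 0.36, aligned with STAR 2.5.2a and counted with RSEM 1.2.31 on GRCm38. The authors deposited 1 table of normalised expression values, a signal of reads divided by a library factor, for 48795 Ensembl genes. Multiplied by the library's factor, 100% of values came out whole (tolerance 0.001), which returned the reads. These factors matched those that DESeq2's median-of-ratios rule gives for the 20 libraries.

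Symbols and positions came from the GENCODE annotation of GRCm39 (44565 identifiers, 91.3%). Promoter sequences are RefSeq on GRCm38.p6. The main test was limma 3.58.1 (R 4.3.3, trended and robust, 2-sided, Benjamini-Hochberg) on log2(value + 1), for genes at 10 or more in 5 of the 10 hearts, with a threshold of 0.05. DESeq2 1.42.0 and edgeR 4.0.16 on the recovered reads were alternatives. DESeq2 left some adjusted p-values undefined, which were not counted. The added 1 shrinks the log2 fold change of low genes, but hearts at or near 0 can make it larger than the ratio of the means. The code was tested on simulated data. Reads are not unique molecules, so counting error is a lower limit, and p-values measure the spread between these hearts.

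Named genes were those past the threshold in any of the 3 tools, the 12 higher and the 12 lower genes (no pseudogenes or unnamed models) with the smallest limma p, and up to 4 members of each list by limma p, with the markers that define a cell type. The members and the gene lists were chosen with earlier results of these data known. Hallmark lists were copied as symbols from the study's supplement and the others were written by hand. Alternatives changed the tool, pseudocount, filter, scaling, weights, covariates or hearts. Some results for single genes are not reported here.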

Additional observations from a re-analysis of the deposited data

Results flagged for a closer look

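Within 5 hearts, a value was listed when its gap to the nearest heart was a large part of the group's range (Dixon's test at the 95% level), which chance gives in about 1 of 20 groups. Of 76 groups examined, 6 were listed. Cdkn2c was high in WT heart 2, at 264 against 211 to 224 in the other WT hearts. Rfx5 was high in WT heart 5, at 611 against 403 to 440. Rbl1 was high in the same heart, at 1025 against 862 to 908. The share of mitochondrially encoded reads was high in heart 5 of both groups, 19.5% against 4.85% to 5.42% in WT and 15.5% against 5.23% to 6.15% in Dp3Tyb. The summed value of thymus and pharynx markers was high in Dp3Tyb heart 4, at 461 against 75.8 to 131 in the other Dp3Tyb hearts. Without WT heart 5 and Dp3Tyb heart 5, the log2 fold changes of Rfx5 and Rbl1 were -0.39 and -0.20.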

How the results depend on the processing

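The number of genes called outside the segment, 1 in limma with all 10 hearts, depended on the setting. It was 18 with DESeq2, 15 with DESeq2 on all genes with a read, 2 with edgeR, 7 with all 20 hearts sharing the spread, 34 with array weights, 26 with the mitochondrial share as a covariate, 13 without the 2 libraries over 10% mitochondrial reads, and 38 with DESeq2 without these 2, a setting chosen after seeing the data. It was 0 with no filter and 0 with sex as a covariate. Leaving out 1 heart gave 0 to 2, with 2 only without WT heart 5. Of the 18 DESeq2 calls, 13 were also called with the covariate and 13 with array weights.

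The difference in the share of mitochondrially encoded reads, -0.382 percentage points, had no stable sign. It was 0.044 on the log2 scale and between -2.32 and 2.47 when 1 heart was left out, lowest without Dp3Tyb heart 5 and highest without WT heart 5. The interaction count was 0 under every alternative run. The 72 genes recomputed singly kept their sign in every alternative. Several other list members picked by limma p did not keep theirs. On the log2 scale Cox7a2 ran from -0.137 to 0.006, Hk2 from -0.123 to 0.010, Myl3 from -0.176 to 0.019 and mt-Nd6 from -0.23 to 0.63. Of the list medians, 779 values stayed within the spread between hearts and 2 did not: calcineurin and NFAT without Dp3Tyb heart 5 (-0.06) and lung and foregut markers with a filter at 100 (0.13). No paired analysis was possible because the labels give no replicate numbers or litters that link the groups. The groups alternate in the listing and sex matched between neighbours, but no label ties neighbours to a litter, so they were not paired. Depth limits genes with a mean under 30, and 5 hearts a group limits small changes.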

Other observations

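Leaving out WT heart 5 and Dp3Tyb heart 5 brought out genes that were named only after their values had been seen. In the 8 other hearts Car3, a carbonic anhydrase of muscle and fat, was at 90.6 to 105 in the WT and 148 to 233 in the Dp3Tyb hearts, while WT heart 5 was at 191 and Dp3Tyb heart 5 at 227. Its log2 fold change in the 8 hearts was 0.82 ± 0.13 (SE, limma adjusted p = 0.0205). Ctsc, a protease that activates granule enzymes of leukocytes, was at 522 to 547 in the WT and 617 to 677 in the Dp3Tyb hearts (limma adjusted p = 0.0414). Sfi1, a centrosome protein, was at 240 to 267 and 188 to 201, and Mxd4, a partner of Max that opposes Myc, at 1227 to 1321 and 947 to 1089 (limma adjusted p = 0.0466 and 0.0262). In all 10 hearts the groups overlapped for each of these 4 genes. With array weights, with the mitochondrial share as a covariate and without both libraries, limma called 34, 26 and 13 genes, and 12 were called in all 3 fits: Ky, Mal, Ecm1, Entpd1, Heph, Rec8, Rfx5, Ucp2 and these 4.

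In the same 8 hearts DESeq2 called the mitotic genes Top2a, a topoisomerase, Smc4, a condensin subunit, and Iqgap3, a scaffold of dividing cells. Top2a was at 7038 to 7415 in the WT and 6089 to 6803 in the Dp3Tyb hearts, Smc4 at 4778 to 5149 and 4322 to 4701, and Iqgap3 at 1188 to 1404 and 1068 to 1142 (DESeq2 adjusted p = 0.0265, 0.0374 and 0.0102). In WT heart 5 Smc4 reached 10399 and in Dp3Tyb heart 5 it reached 7099, so both stood far above their groups. Anxa9, a further gene in the stretch of chromosome 3 that holds Ecm1, Ctsk and Rfx5, had a log2 fold change of 0.84 ± 0.25 (SE) at values of 5.87 to 12.7 in the WT and 12.3 to 20.3 in the Dp3Tyb hearts.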
